A study of Saccharomyces cerevisiae with 6 samples.

Results

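The mitochondrial chaperones and matrix proteases of the budding yeast Saccharomyces cerevisiae were followed through 2 h of formaldehyde exposure. The set holds 9 genes of 5379 named genes in the deposited table, chosen by gene symbol: the chaperonin genes HSP60 and HSP10, the Hsp70 genes SSC1 and ECM10 with the cofactor genes MGE1 and MDJ1, the Clp family genes HSP78 and MCX1, and PIM1, which encodes the Lon protease. All 9 symbols were found, each on 1 probe. The treated cells were strain S288C, the laboratory strain behind the yeast reference genome, grown in YPD (a rich glucose medium) at 25 °C and given 1.8 mM formaldehyde for 2 h during exponential growth. The control cells were S288C in the same medium, grown on for 2 h without treatment. Each of 3 arrays, from independent biological samples per the series' design text, carried cDNA of treated cells in Cy5 and of control cells in Cy3, and a high power and a low power scan was made of each.

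All values below are log2 ratios, read as formaldehyde over control. That direction is likely rather than settled: the labels give channel 1 and Cy5 to the treated cells on every array, but which channel is the numerator was not stated, and with the opposite direction each sign would turn. With no dye swap, a dye effect of a single gene and the treatment cannot be told apart. Ratios were normalised within each scan, so a change common to most transcripts is hidden, and a change in cell number or in RNA per cell cannot be told apart either.

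Most mitochondrial proteins are made in the cytosol and enter the organelle unfolded. In the matrix, the Hsp70 protein Ssc1 pulls them inward and binds them with the help of the J-protein Mdj1 and the nucleotide exchange factor Mge1, and the Hsp60 ring with its Hsp10 lid encloses and folds a part of them. Hsp78 recovers proteins from aggregates, and Pim1 degrades those that stay misfolded or become damaged. Several of these genes are known as heat-inducible in yeast.

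Of the 9 genes, 5 had a value on all 3 arrays and were tested, 3 had values on 2 arrays and 1 on a single array. HSP10 was the only one of the 5 to pass the test, and it rose; no tested member fell. Across all 2133 tested genes 62.5% were called at adjusted p under 0.05 (limma's moderated test of the mean against 0, Benjamini-Hochberg over all tested genes), 37.2% upward and 25.3% downward. The count of calls among the members is small and depends on the setting: the 6-scan fit described below called 2 higher, and the fit without array 1, which tested 6 members, called 2 higher and 1 lower. Over all genes the 6-scan fit called 813 of 2133 higher. The fit without array 1 called 960 of 2945 higher and 688 lower. At an unadjusted p under 0.05, 2 of the 5 were higher, HSP10 and HSP60, and 0 were lower. At that threshold 843 of all 2133 tested genes were higher and 570 lower, so the share of members that were higher lies near the background. The median of the 5 mean log2 ratios was 0.51, beside 0.18 over all tested genes.

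**Figure D1:**
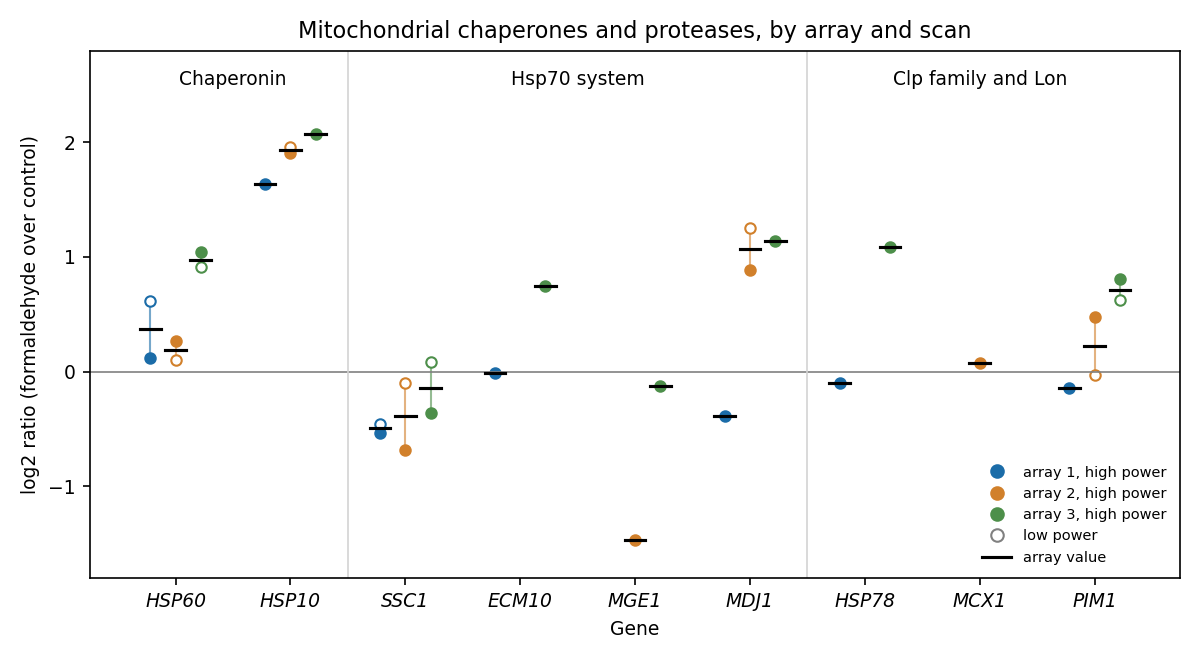
Log2 ratio of formaldehyde over control for each of the 9 genes (x axis, grouped by machine), with arrays 1, 2 and 3 side by side from left to right; filled points are high power scans, open points low power scans, and black bars the array value (their mean, or the one present). HSP10 lies above 1.6 on all 3 arrays, HSP60 lies above 0 on all 3, and the array values of SSC1 lie below 0 on all 3, although its low power scan on array 3 is at 0.08. MGE1 is below 0 on both arrays that measured it, at -1.47 and -0.13.

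HSP10 (YOR020C) encodes the lid that closes the chaperonin chamber. Its log2 ratio was 1.64 on array 1, 1.94 on array 2 and 2.07 on array 3. All 3 values lay far above 0 and close together, and the gene stood above 89.0%, 94.1% and 93.8% of the named genes measured on arrays 1, 2 and 3. The mean was 1.88 ± 0.22 (SD, n = 3), or 3.69-fold, with a 95% interval of 1.47 to 2.29 and limma adjusted p = 0.000107. Both scans of array 2 gave nearly one value (1.91 at high and 1.96 at low power), while arrays 1 and 3 gave a value for HSP10 at high power alone.

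HSP60 (YLR259C) encodes the ring itself, the chamber in which the enclosed protein folds. Its log2 ratio was 0.37 on array 1, 0.19 on array 2 and 0.98 on array 3. All were positive, but array 3 was well above the other two, and the mean of 0.51 ± 0.41 (SD, n = 3; 1.43-fold, 95% interval 0.03 to 1.00) did not pass (limma adjusted p = 0.064). Of all tested genes, 44.5% were above 0 on every array, so one sign on 3 arrays is common here. HSP60 stood above 61.5%, 55.6% and 78.1% of the named genes measured on arrays 1, 2 and 3. The scans of array 1 disagreed about HSP60, at 0.12 with high and 0.62 with low power. HSP60 was called higher with low power scans alone (0.54, limma adjusted p = 0.00665), where 560 genes were tested. A fit of all 6 scans that treats arrays as random blocks called it higher too (0.51, limma adjusted p = 0.033). That fit adds readings of the same 3 arrays and no further biological samples. It set the correlation of scans within an array at 0.53 for all genes. HSP60 was not called with scans centred on their medians (0.42, limma adjusted p = 0.098). Nor was it called with scans centred on genes other than those of cytosolic ribosomal proteins (0.38, limma adjusted p = 0.13).

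The partners of the chaperonin thus had unequal ratios. Within the same array, the log2 ratio of HSP10 exceeded that of HSP60 by 1.26, 1.75 and 1.10 on arrays 1, 2 and 3. The difference averaged 1.37 ± 0.34 (SD, n = 3; 1.39 with high power scans alone), and the ranges of the 2 genes did not overlap. An exact two-sided sign-flip permutation test gave p = 0.25, the smallest that 3 arrays allow, and 0.25 after Benjamini-Hochberg adjustment over the 4 gene pairs that could be tested. This comparison is between ratios, and says nothing on which transcript was the more abundant. All tested pairs were planned with earlier results of these data known.

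SSC1 (YJR045C) encodes the main Hsp70 of the matrix, which acts both in import and in folding. Its log2 ratio was -0.50 on array 1, -0.39 on array 2 and -0.14 on array 3. The values were all slightly below 0, as for 31.4% of tested genes, and the mean of -0.34 ± 0.18 (SD, n = 3; 95% interval -0.74 to 0.06) did not pass (limma adjusted p = 0.12). The gene was read in every scan, and the low power value was the higher one each time: -0.53 and -0.46 on array 1, -0.68 and -0.10 on array 2, -0.36 and 0.08 on array 3, high power first. SSC1 was called lower with high power scans alone (-0.52, limma adjusted p = 0.034) and with scans centred on genes other than those of cytosolic ribosomal proteins (-0.47, adjusted p = 0.042), and it was not called with low power scans alone (-0.16, adjusted p = 0.41). That centring moved the median of all tested genes by -0.11, to 0.07.

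ECM10 (YEL030W), the paralog of SSC1, had a log2 ratio of -0.01 on array 1 and 0.75 on array 3, and no value on array 2. It stood above SSC1 by 0.49 on array 1 and by 0.89 on array 3. ECM10 was read at high power alone, whereas the SSC1 values average both scans (-0.36 at high and 0.08 at low power on array 3). Both genes encode similar proteins, and cDNA of one may bind the probe of the other. When 2 arrays sufficed, ECM10 was not called (0.37, 95% interval -0.27 to 1.01, limma adjusted p = 0.31).

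MDJ1 (YFL016C), which delivers substrates to Ssc1 and stimulates its ATPase, had the largest spread over arrays of the 5 tested genes. Its log2 ratio was -0.39 on array 1, 1.07 on array 2 and 1.14 on array 3. Arrays 1 and 3 gave a value for MDJ1 at high power alone. Arrays 2 and 3 were close together, while array 1 lay on the other side of 0, and the SD of 0.86 exceeded that of 96.9% of tested genes. The mean of 0.61 (95% interval -0.13 to 1.35, n = 3) did not pass (limma adjusted p = 0.13). Without array 1 it was 1.10 and called (limma adjusted p = 0.000249), a fit on 2 arrays whose p leans on the variance pooled over genes.

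MGE1 (YOR232W) encodes the exchange factor that frees ADP from Ssc1. It was measured on 2 arrays, both at high power alone, with log2 ratios of -1.47 on array 2 and -0.13 on array 3. Both values were negative, but they lay far apart: the gene stood above 9.55% of measured genes on array 2 and above 41.0% on array 3. Its mean of -0.80 was not called when 2 arrays sufficed (95% interval -1.54 to -0.06, limma adjusted p = 0.064). In the fit without array 1, which uses the same 2 values with another pooled variance, it was called lower (limma adjusted p = 0.0096).

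The Hsp70 group was compared within arrays. SSC1 was lower than MDJ1 by 0.11, 1.46 and 1.28 on arrays 1, 2 and 3, with a mean difference of SSC1 minus MDJ1 of -0.95 ± 0.73 (SD, n = 3; exact sign-flip permutation p = 0.25, the smallest possible). That difference was -1.07 with high power scans alone. On array 1 the 3 measured genes of the group were all below 0, from -0.50 for SSC1 through -0.39 for MDJ1 to -0.01 for ECM10. On array 2 the log2 ratios of the 3 measured genes of the group ran from -1.47 for MGE1 to 1.07 for MDJ1, and on array 3 the 4 genes ran from -0.14 for SSC1 to 1.14 for MDJ1. HSP60 stood above SSC1 by 0.87, 0.58 and 1.12 on the 3 arrays, a mean difference of 0.85 ± 0.27 (SD, n = 3; exact sign-flip permutation p = 0.25).

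HSP78 (YDR258C) encodes the ClpB-type disaggregase of the matrix, which works with Ssc1 on aggregated proteins. Its log2 ratio was -0.10 on array 1 and 1.08 on array 3, with no value on array 2. The arrays disagreed in sign, and the mean of 0.49 was not called when 2 arrays sufficed (95% interval -0.22 to 1.20, limma adjusted p = 0.22). HSP104, its cytosolic relative, had log2 ratios of -0.74, 0.32 and 0.79 on arrays 1, 2 and 3 and did not pass either (limma adjusted p = 0.74). On the arrays that measured both, HSP78 stood above HSP104 by 0.64 (array 1) and 0.30 (array 3). HSP78 was read at high power alone, whereas the HSP104 value on array 1 averages -0.46 at high and -1.03 at low power.

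PIM1 (YBL022C), the Lon protease of the matrix, had log2 ratios of -0.14, 0.22 and 0.72 on arrays 1, 2 and 3. The values lay on both sides of 0, as for 24.1% of tested genes, and the mean of 0.26 ± 0.43 (SD, n = 3; 95% interval -0.23 to 0.76) did not pass (limma adjusted p = 0.30). The scans of array 2 gave 0.47 at high and -0.03 at low power. PIM1 stood above SSC1 on every array, by 0.35, 0.61 and 0.85 (mean difference 0.61 ± 0.25, SD, n = 3; exact sign-flip permutation p = 0.25). That mean difference was 0.90 with high power scans alone. MCX1 (YBR227C), a ClpX-like unfoldase, was measured on array 2 alone, at 0.08, near the middle of that array's genes (above 51.2%).

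By mean log2 ratio the 5 tested genes ran from HSP10 through MDJ1, HSP60 and PIM1 down to SSC1. HSP10 stood above MDJ1, next in the order, on every array, by 2.02, 0.87 and 0.93. MDJ1 and HSP60 did not differ beyond their spread (MDJ1 minus HSP60 0.09 ± 0.82, SD, n = 3), with MDJ1 lower on array 1 and higher on the other arrays. HSP60 and PIM1 did not either (HSP60 minus PIM1 0.25 ± 0.28, SD, n = 3). These neighbours were paired after their order was seen, so no test is given. The tested pairs were planned, but also with earlier results of these data known.

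**Figure D2:**
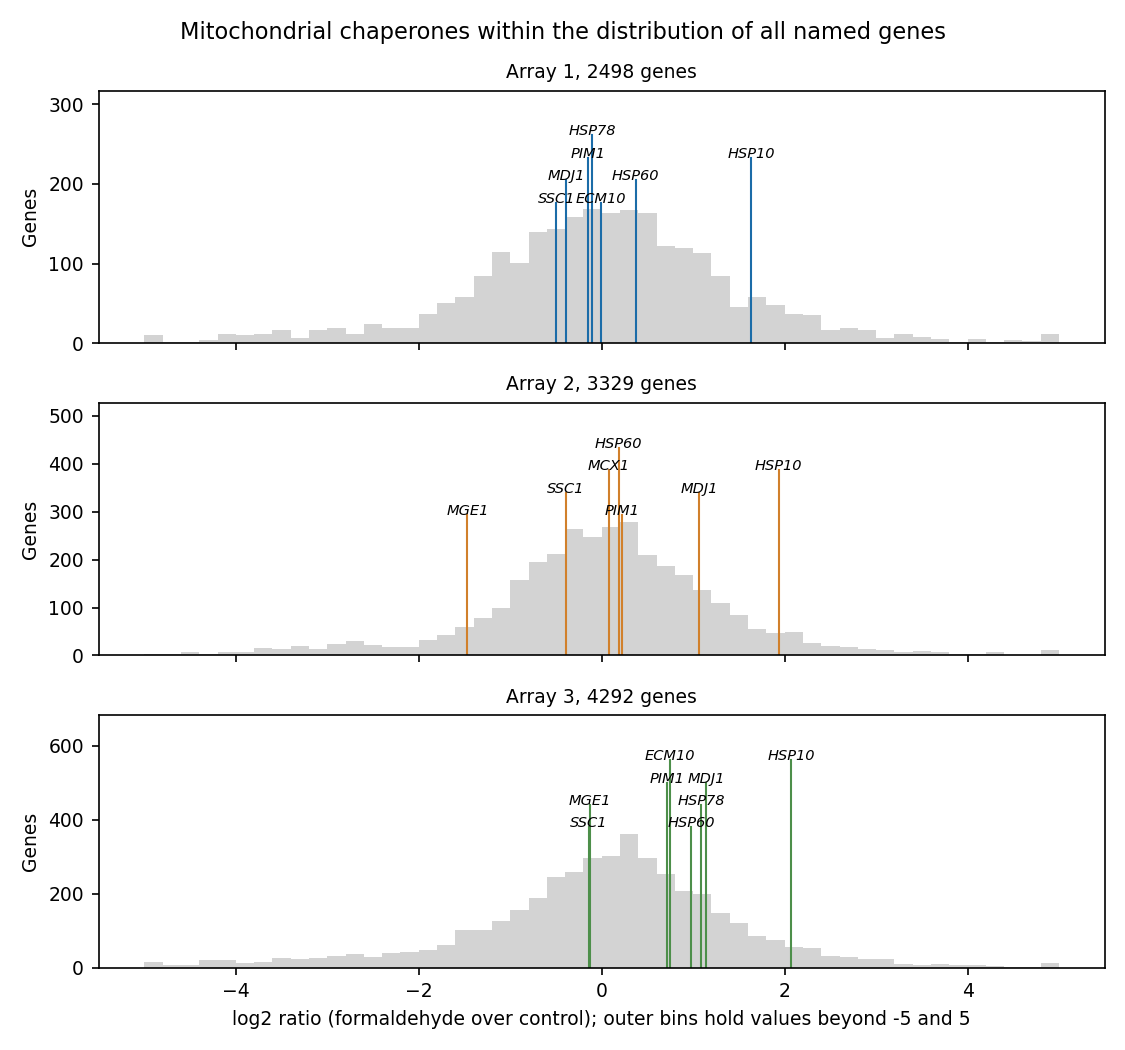
Number of named genes (y axis) by log2 ratio of formaldehyde over control (x axis) on each array, with vertical lines at the values of the mitochondrial chaperones measured there. HSP10 stands in the upper tail on all 3 arrays, above 89.0% to 94.1% of genes, and SSC1 stands below the middle, above 32.9% to 40.5%.

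The arrays differed in level for this set. Array 3 gave the highest value for each of the 5 tested genes, and for both ECM10 and HSP78 it gave the higher of their 2 values. The share of all tested genes that were highest on array 3 was not counted. Over these 5 genes the median log2 ratio was -0.14, 0.22 and 0.98 on arrays 1, 2 and 3, beside 0.05, 0.21 and 0.31 over all tested genes. Array 1 measured the fewest genes (2498, against 3329 on array 2 and 4292 on array 3). Without array 3 the mean log2 ratio was 1.79 for HSP10, 0.34 for MDJ1, 0.28 for HSP60, 0.04 for PIM1 and -0.44 for SSC1, and HSP10 alone was called. Without array 1 the means were 2.01 for HSP10, 1.10 for MDJ1, 0.58 for HSP60, 0.47 for PIM1 and -0.27 for SSC1. HSP10 was thus the highest and SSC1 the lowest of the 5 in both fits.

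Agreement between scans limits how finely the smaller ratios can be read. Over genes read at both powers, the median absolute difference of high minus low power was 0.16 on array 1 (740 genes), 0.26 on array 2 (1145 genes) and 0.20 on array 3 (1466 genes). The HSP60 difference on array 1 (-0.50) was larger in size than that of 90.3% of these genes, and the SSC1 differences on arrays 2 and 3 (-0.58 and -0.44) were larger than those of 85.4% and 80.9%. No intensities were used, so signal over background is unknown, and precision is limited by the small number of arrays.

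Genes with related tasks in mitochondrial protein handling were set beside these 9. Of 34 further mitochondrial genes in 4 lists (Hsp70 partners, other proteases and prohibitins, presequence processing, assembly chaperones), 13 were tested, of which 7 rose, 2 fell and 4 did not pass (limma). Their median log2 ratio was 0.63, beside 0.18 over all tested genes, and the called share lies near the 62.5% of all genes.

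Of the 7 tested proteases and prohibitins 5 rose and none fell, with a median of 1.18; over all tested genes 37.2% were called higher and 25.3% lower. At an unadjusted p under 0.05, 1 gene of this list was lower, PHB1, beside 570 of all 2133 tested genes. PRD1, an oligopeptidase, had log2 ratios of 1.10, 0.95 and 1.84 on arrays 1, 2 and 3 and rose by 1.30 ± 0.48 (SD, n = 3; limma adjusted p = 0.0018). PCP1, the rhomboid protease of the inner membrane, rose by 1.24 ± 0.66 (0.62, 1.18 and 1.93; adjusted p = 0.00505). CYM1, which degrades cleaved presequences, rose by 1.18 ± 0.28 (1.19, 1.46 and 0.90; adjusted p = 0.00118). These 3 genes lay above 0.6 on every array, higher than PIM1 on the same array.

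AFG3, a subunit of the m-AAA protease of the inner membrane, rose by 1.17 ± 0.21 (SD, n = 3; limma adjusted p = 0.001), with 1.30, 0.92 and 1.28 on arrays 1, 2 and 3. YTA12, the other subunit of that protease, was measured on 2 arrays, at -0.34 (array 2) and -0.19 (array 3). PHB2 rose by 1.18 ± 0.07 (adjusted p = 0.000688), with 1.13, 1.26 and 1.14 on the 3 arrays, whereas its partner PHB1 had -0.91, -0.15 and -0.47 (mean -0.51 ± 0.38, SD, n = 3; limma adjusted p = 0.058). PHB1 was called lower with arrays as random blocks (-0.48, limma adjusted p = 0.034), with scans centred on their medians (-0.58, adjusted p = 0.033) and with centring on non-ribosomal genes (-0.62, adjusted p = 0.026). The 2 prohibitins form one ring complex that binds the m-AAA protease, and PHB2 exceeded PHB1 on every array, by 2.04, 1.41 and 1.61. PHB2 and PHB1 thus had unequal ratios, and how often any 2 tested genes differ this much was not counted. The pairs AFG3 with YTA12 and PHB2 with PHB1 were picked after their values were seen, and their differences were not tested.

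In the other mitochondrial lists few genes could be tested. Of 2 tested partners of Hsp70, PAM17, of the import motor, rose by 0.84 ± 0.29 (SD, n = 3; limma adjusted p = 0.00613), and TIM44, which tethers Ssc1 to the import channel, had -0.04, -0.03 and 0.05 (adjusted p = 0.98). The J-protein gene JID1, outside the naming rule and singled out after its values were seen, had 1.93 on array 2 and 2.49 on array 3. The other untested partners with a value, also outside that rule, were below 0. PAM16 had -0.56 on array 2 and -0.51 on array 3, and array 3 alone gave -0.48 for PAM18 and -0.59 for MDJ2. The inner membrane peptidase subunits went apart: IMP2 rose by 0.63 ± 0.10 (0.54, 0.73 and 0.61; limma adjusted p = 0.013), and IMP1 fell by 0.55 (SD 0.37, n = 3), with -0.69, -0.83 and -0.14 (adjusted p = 0.042). IMP1 did not pass with arrays as random blocks (-0.51, limma adjusted p = 0.051) or when 2 arrays sufficed (-0.55, adjusted p = 0.055). Nor did it pass when array 1 was left out (log2 ratio -0.49, limma adjusted p = 0.13), or when array 2 was (-0.41, limma adjusted p = 0.28). IMP2 did not pass when array 2 was left out (0.57, limma adjusted p = 0.12), nor when array 3 was (0.64, limma adjusted p = 0.052). The pair IMP2 with IMP1 was also picked after its values were seen, and its difference was not tested. BCS1, which inserts the iron-sulfur protein into respiratory complex III, fell by 1.34 (SD 0.35, n = 3; adjusted p = 0.000872), with -1.71, -1.32 and -1.01, and TCM62, a chaperone-like protein of complex II assembly, had -0.54, 0.29 and 0.22 and did not pass (adjusted p = 0.97).

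**Figure D3:**
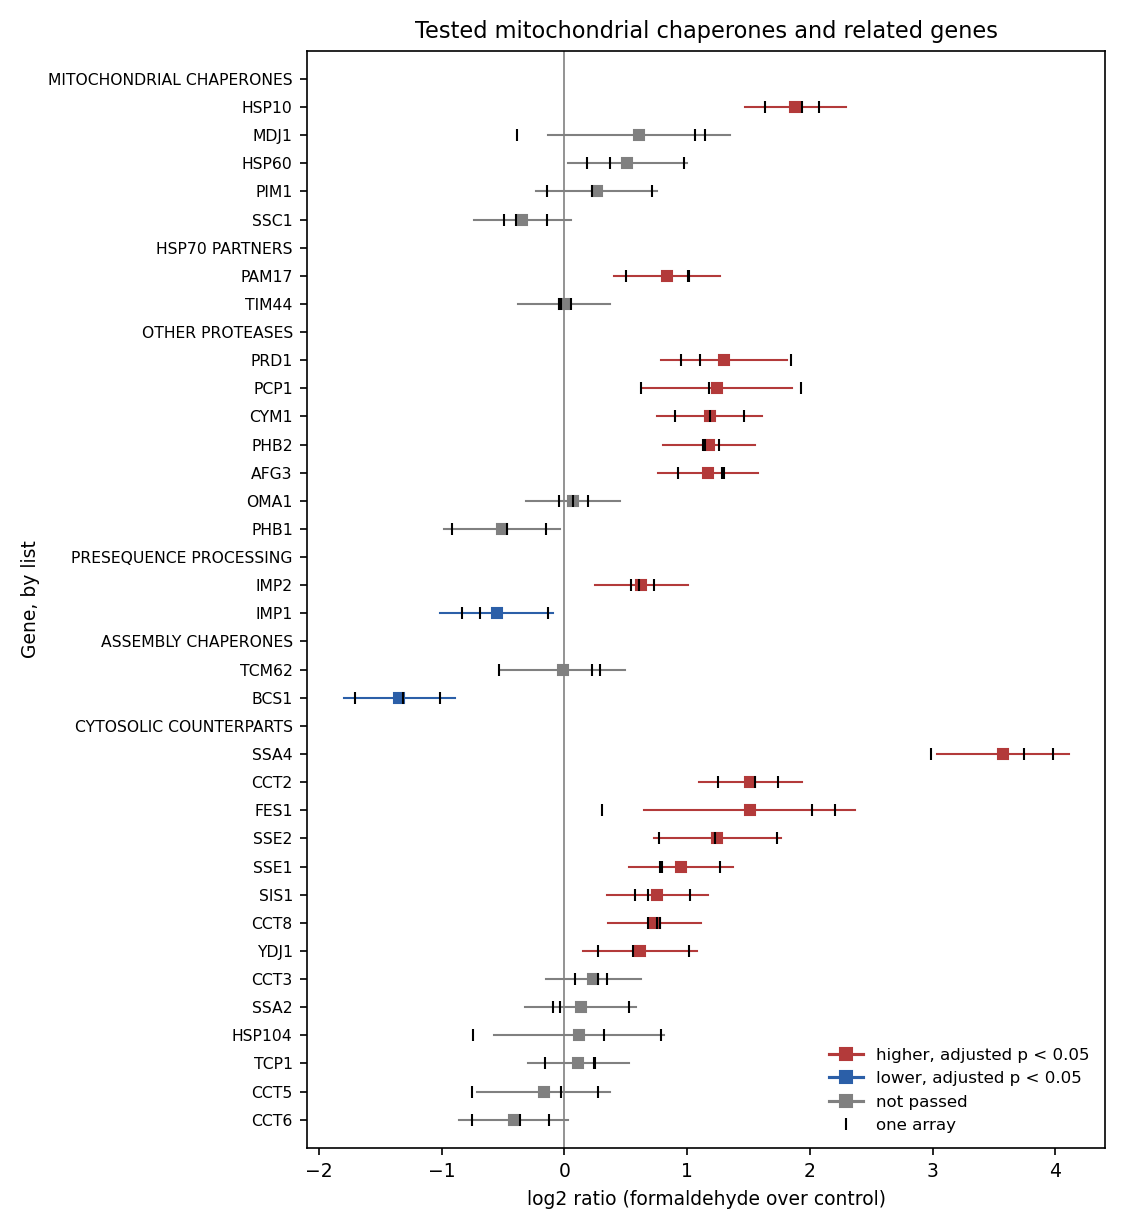
Mean log2 ratio of formaldehyde over control (squares) with its 95% interval (lines, limma) and the 3 array values (ticks), for the tested mitochondrial chaperones and the related genes by list (y axis). HSP10 is the one called gene of the 5 chaperones and proteases at the top. Called higher are 5 of 7 other proteases and prohibitins and 8 of 14 cytosolic counterparts. Over all tested genes 37.2% are called higher and 25.3% lower.

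Among 14 tested cytosolic counterparts 8 rose, none fell and 6 did not pass (limma; 0 were lower at an unadjusted p under 0.05), with a median log2 ratio of 0.68. Over all tested genes 37.2% were called higher, 25.3% lower and 62.5% in either direction, and 570 of 2133 were lower at an unadjusted p under 0.05. The share of counterparts called in either direction lies near the background, and all their calls were upward. The stress-induced Hsp70 gene SSA4 had 2.99, 3.75 and 3.98 on arrays 1, 2 and 3, while SSA2, made at high level in unstressed cells, had -0.10, -0.04 and 0.53 and did not pass (limma adjusted p = 0.58). The exchange factor genes FES1 (1.51 ± 1.04, SD, n = 3; limma adjusted p = 0.00962) and SSE2 (1.24 ± 0.48, adjusted p = 0.00225) rose, beside the negative values of the mitochondrial exchange factor gene MGE1. The J-protein genes YDJ1 (0.62 ± 0.37) and SIS1 (0.76 ± 0.23) rose as well (adjusted p = 0.029 and 0.00785).

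Of the 6 tested subunits of CCT, the cytosolic chaperonin, 2 rose and none fell (0 lower at an unadjusted p under 0.05), with a median log2 ratio of 0.17, and the share that rose lies near the 37.2% of all tested genes. At the unadjusted threshold 570 of all 2133 tested genes were lower. CCT6 had -0.75, -0.36 and -0.13 on arrays 1, 2 and 3 and did not pass (limma adjusted p = 0.092), but it was called lower with scans centred on their medians (-0.48, adjusted p = 0.047) and with centring on non-ribosomal genes (-0.53, adjusted p = 0.036). CCT2 had 1.25, 1.74 and 1.55 on arrays 1, 2 and 3 and rose by 1.52 ± 0.25 (SD, n = 3; limma adjusted p = 0.000331), and CCT8 rose by 0.73 ± 0.05 (adjusted p = 0.00592). Among the counterparts, FES1 was at 0.31 on array 1 and above 2 on the others, and it did not pass when array 3 was left out (1.26, limma adjusted p = 0.085). The same held for SIS1 (0.63, limma adjusted p = 0.052). YDJ1 did not pass with centring on non-ribosomal genes (0.49, limma adjusted p = 0.064). Nor did it pass when array 2 was left out (0.42, limma adjusted p = 0.27), or when array 3 was (0.65, limma adjusted p = 0.096).

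Likeness of pattern was measured as the Euclidean distance between the 3 array values of 2 genes, over tested genes outside the lists. Nearest to HSP10 were YIF1 (1.61, 1.99 and 2.03 on arrays 1, 2 and 3; distance 0.07), EMC3 (distance 0.08) and YDR262W (distance 0.13). Nearest to HSP60 were UBX3 (0.38, 0.20 and 1.03; distance 0.05), APT2 (distance 0.11) and NHP6B (distance 0.14). The median distance was 3.05 from HSP10 and 1.54 from HSP60, and with 3 arrays such nearness describes these values only.

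**Figure D4:**
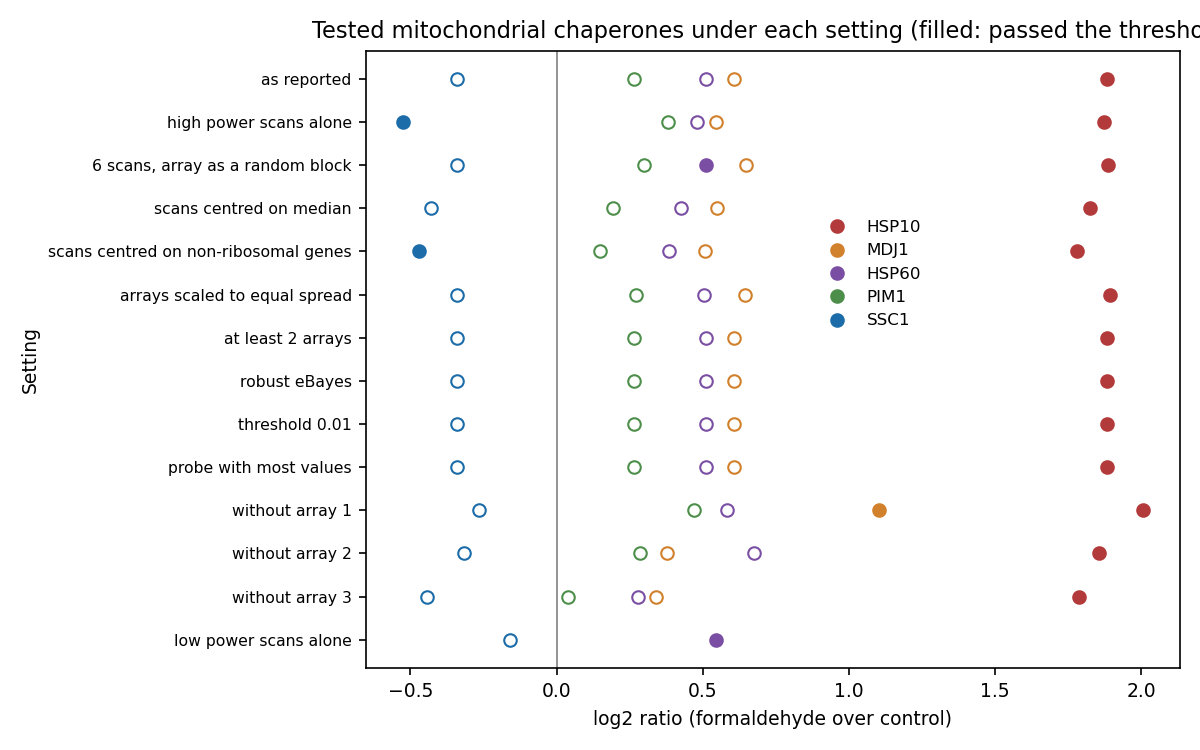
Mean log2 ratio of formaldehyde over control (x axis) of the 5 tested mitochondrial chaperones under each processing setting (y axis); filled points passed the threshold. HSP10 lies between 1.78 and 2.01 and is filled under every setting that tested it. HSP60, SSC1 and MDJ1 are filled under 1 or 2 settings each, and PIM1 under none.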

How the data were processed

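The authors deposited 1 log2 ratio per probe and scan, normalised by LOWESS over spots with flag 0 and not merged between powers, per the labels' descriptions. The log base was inferred from the lowest value, -6.64, the log2 of a ratio of 0.01. Image software was not given in the sources used here. Probes were named from GEO's platform annotation (5446 of 6912 had 1 symbol, none several), and systematic names came from the NCBI gene table of assembly R64.

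Probes of a gene were averaged, then the scans of each array, and genes with values on all 3 arrays (2133) entered limma's test of a mean of 0 (version 3.58.1, R 4.3.3), with 4.84 degrees of freedom from the eBayes prior beside 2 of the residuals, at Benjamini-Hochberg adjusted p under 0.05. The gene test was tried on simulated data. Named genes were the 9 members, tested genes of the related lists (up to 4 of largest change in each list in full) and the 3 nearest genes to HSP60 and to HSP10. The members, lists and tests were chosen with earlier results of these data known. Of 9 planned pairs of genes, 4 had values on all 3 arrays. Other settings were: 1 scan power, 6 scans with arrays as random blocks, centring, scaling, 2 arrays, robust eBayes, a threshold of 0.01, single probes, and leaving out each array. Sequences of these genes were not used here.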

Additional observations from a re-analysis of the deposited data

How the results depend on the processing

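HSP10 kept its call and direction in every setting that tested it, and no tested mitochondrial chaperone changed sign in any setting. With low power scans alone HSP10 was not tested, and HSP60 was the 1 member called higher of 2 tested. Called higher were 2 members with the 6-scan block (HSP10 and HSP60) and without array 1 (HSP10 and MDJ1), so leaving out arrays gave 1 to 2. Called lower was 1 member with high power scans alone or with centring on genes other than ribosomal protein genes (SSC1 in both) and without array 1 (MGE1), for a range of 0 to 1 when leaving out arrays. Over all genes the 6-scan block called 813 of 2133 higher. High power scans alone called 542 of 2116 lower, and centring on genes other than ribosomal protein genes 603 of 2133. PIM1 had the widest relative range without 1 array, 0.04 to 0.47, and was never called. With low power scans alone 560 genes were tested, which left 225 higher and 178 lower among all genes, and 5 higher and 0 lower of 7 related genes. Requiring 2 arrays called 816 of 3307 tested genes lower, beside 539 of 2133 when a value on every array was required. The larger count thus also reflects how many genes entered. Of the related genes, 4 of 27 tested were lower with either centring, 1 of 38 with 2 arrays and 1 of 27 at the threshold of 0.01. Leaving out arrays gave 11 (of 27 tested, without array 3) to 18 (of 38, without array 1) higher and 1 to 2 lower related genes. Among all genes it gave 608 to 960 higher and 464 to 688 lower. The lower ends are of 2146 genes tested without array 3, and the upper ends of 2945 tested without array 1, so these ranges also reflect how many genes entered. Signs turned only for genes that did not pass: OMA1 with high power scans (-0.053) and with centring on non-ribosomal genes (-0.024), TCM62 with scaled arrays (0.011), and, when leaving out arrays, TIM44 (-0.036 to 0.012), TCM62 (-0.16 to 0.25), HSP104 (-0.21 to 0.56), SSA2 (-0.067 to 0.25) and CCT5 (-0.39 to 0.13). For the other changes the cause was not tested. No further pairing was applied, because both conditions lie on each array and the ratio already pairs them.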
